A study of Macaca mulatta with 19 samples.

Results

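Immediate-early genes were followed across luteinized granulosa cells of 19 rhesus macaques, with the small MAF factor MAFF at the centre. The set was a list of 10 named genes: MAFF, ATF3, FOS, FOSB, FOSL2, JUN, JUNB, EGR1, NR4A1 and PPP1R15A. Of these, 9 were found among the 32386 genes of the deposited count table, 8 by the symbol in the row name and FOS through the row named c-fos, whose identifier the reference table pairs with FOS. JUN was not analysed here. MAFF was chosen by its own counts, which were higher with testosterone in these same libraries, so the testosterone comparisons of the set are given as a description, without a test.

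Immediate-early genes are transcribed soon after a cell receives a signal, from promoters that are already poised and without the need for new protein. Most of their products are transcription factors that pass the signal on to later genes, and the messages are short-lived. In granulosa cells, the ovulatory surge of luteinizing hormone is known to induce several of them, EGR1 and NR4A1 included, as the cells luteinize.

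The identifiers are ENSMMUG00000045506 for MAFF, ENSMMUG00000012185 for ATF3, ENSMMUG00000040100 for FOS, ENSMMUG00000014430 for FOSB, ENSMMUG00000014464 for FOSL2, ENSMMUG00000005688 for JUNB, ENSMMUG00000018025 for EGR1, ENSMMUG00000022922 for NR4A1 and ENSMMUG00000009223 for PPP1R15A. All 9 passed the filter on low counts. The lowest count of any of them in any library was 96 reads, for ATF3.

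Each library came from the cells of the naturally selected periovulatory follicle of 1 animal, aspirated in a controlled ovulation cycle. Since about the onset of menarche, for around 3.5 years, the animals had carried an implant of cholesterol (C) or of testosterone (T), which held testosterone 4 to 5 fold above the level with C. They ate standard chow or a Western-style diet (WSD). There were 4 controls on chow with C (Chow+C), 4 animals on chow with T (Chow+T), 5 on the Western-style diet with C (WSD+C) and 6 on that diet with T (WSD+T), and libraries are named by the group and a running number. The labels also give the state of the oocyte from the same follicle. In the usual abbreviations of the field these were metaphase I (MI, 8 libraries), metaphase II (MII, 4), germinal vesicle (GV, 1) and degenerating (6). Treatment and oocyte class were unequally mixed. Follicles with an MI oocyte numbered 3 in Chow+C, 3 in WSD+C and 2 in WSD+T, with none in Chow+T. Those with an MII oocyte numbered 1 in Chow+C, 2 in Chow+T and 1 in WSD+T. Degenerating oocytes came from 1 animal of Chow+T, 2 of WSD+C and 3 of WSD+T, and the GV oocyte from Chow+T.

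Gene counts per library ranged from 28832132 to 56385679. Of the granulosa markers, 10 of the 11 found reached 1 CPM (a read count relative to the size of its library, scaled by TMM) in every library, and CYP19A1, the aromatase gene, ranged from 64.0 to 1266 CPM. RNA of other cells was also present, and it was unequal. The leukocyte score, the mean log2 CPM of 10 tested leukocyte genes, was lowest in WSD+C 1, at -0.05, and highest in WSD+T 6, at 7.84, with WSD+C 4 at 7.65. RAC2, another leukocyte marker, was at 0 in every library. The summed CPM of the leukocyte markers gave another order, from 549 in Chow+C 2 to 3195 in WSD+C 2. Macrophage markers summed to 14.8 to 23.0 CPM in Chow+C, 15.8 to 158 in Chow+T, 11.5 to 368 in WSD+C and 12.6 to 2860 in WSD+T, where WSD+T 6 was highest. The erythroid markers reached 128813 CPM in WSD+C 4, which also had the lowest sum of granulosa markers, 2818 CPM against a highest sum of 17853. WSD+C 4 and WSD+T 6 thus stood apart, and both had degenerating oocytes. In a bulk sample, fewer cells of a type and less RNA per cell cannot be told apart.

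MAFF encodes a small MAF protein, a basic leucine zipper factor without a transactivation domain of its own that pairs with larger partners such as NFE2L2. In the 4 Chow+C libraries MAFF stood at 61.7, 61.6, 57.3 and 68.0 CPM. The 5 WSD+C libraries had 67.9, 59.8, 76.5, 70.4 and 71.7 CPM. Without testosterone the gene therefore varied little between animals, with a coefficient of variation of 7.09% in Chow+C and 8.86% in WSD+C. Among the Chow+T libraries MAFF was at 144.9, 130.5, 190.7 and 55.5 CPM. In the 6 WSD+T libraries the lowest was 69.0, the median 99.95 and the highest 179 CPM. Of the 10 libraries with testosterone, 8 exceeded the highest of the 9 libraries without it, and 1, Chow+T 4, lay below all of them.

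**Figure D1:**
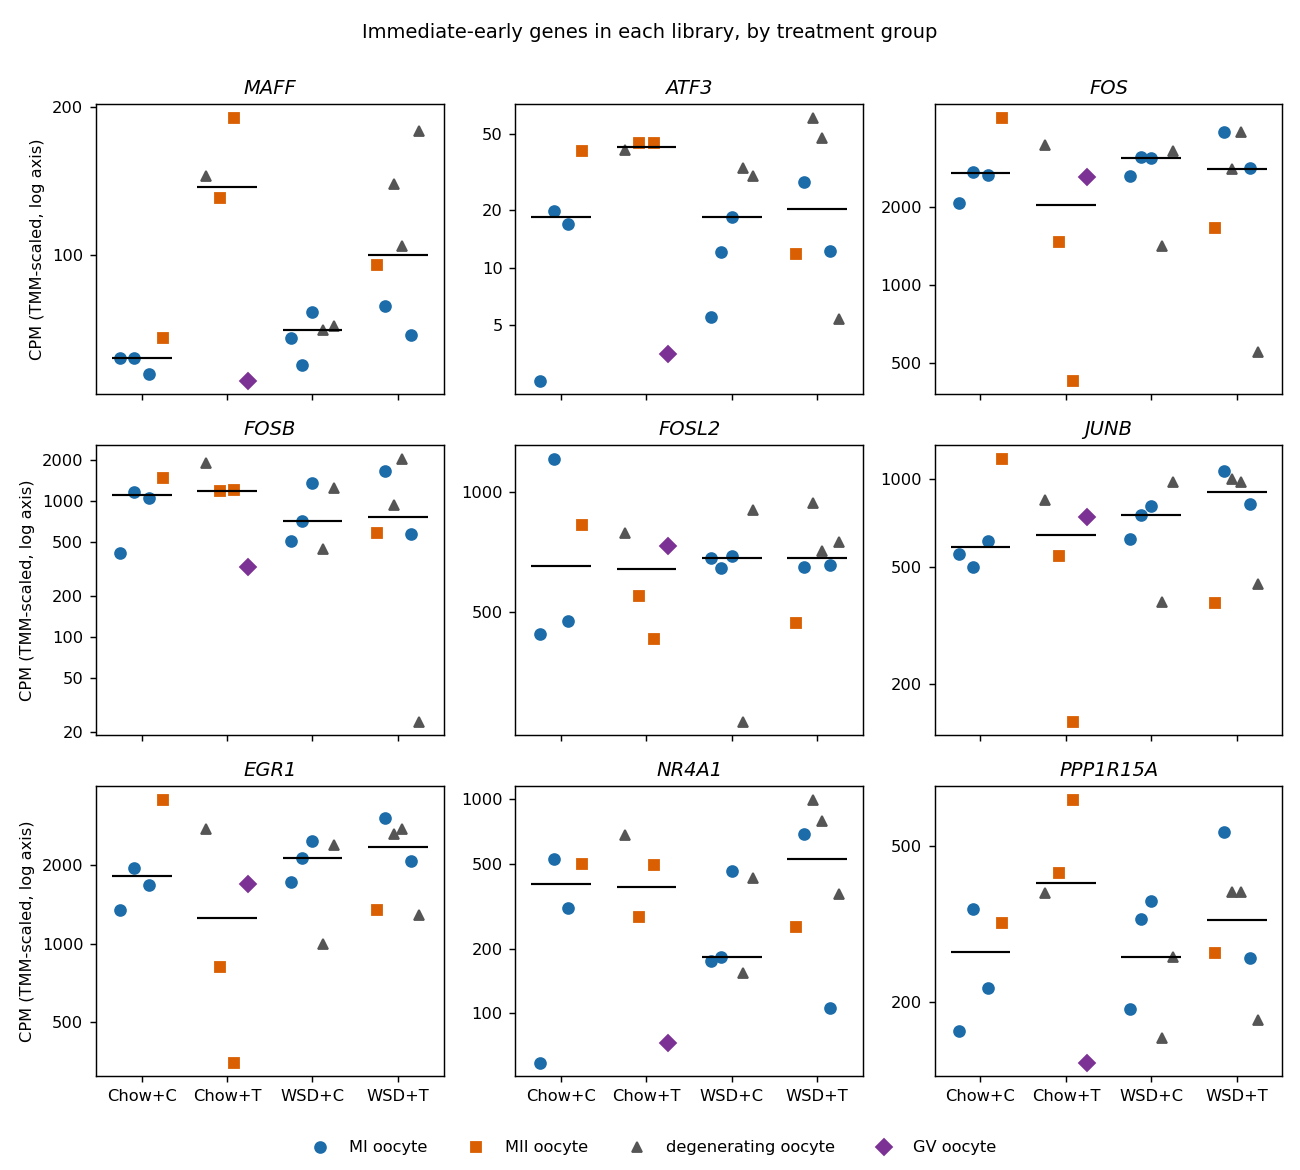
CPM (TMM-scaled, log axis) of the 9 immediate-early genes in each of 19 libraries, by treatment group. Points are libraries, their shape and colour give the oocyte class, and lines are group medians. MAFF lies between 57.3 and 76.5 CPM in the 9 libraries without testosterone, while FOSB spans from 23.6 to 2055 CPM within WSD+T.

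The mean of MAFF was 62.2 ± 4.41 CPM for Chow+C (SD, n = 4), 69.3 ± 6.14 for WSD+C (n = 5), 111.0 ± 41.3 for WSD+T (n = 6) and 130.4 ± 56.1 for Chow+T (n = 4). The ranges of neighbouring groups in this order overlapped in all 3 cases. Spread was several times wider with testosterone than without, with coefficients of variation of 43.1% in Chow+T and 37.2% in WSD+T. The fitted log2 fold change with testosterone was 1.07 (SE 0.31) on chow and 0.68 (SE 0.26) on WSD. Leaving out each library in turn moved the chow value between 0.83, without Chow+T 3, and 1.32, without Chow+T 4. On WSD it lay between 0.49, without WSD+T 6, and 0.79, without WSD+T 5.

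Among the animals with testosterone, the higher MAFF values came from follicles with a degenerating or an MII oocyte. In the 6 libraries with an MI oocyte and C, MAFF had a lowest value of 57.3, a median of 61.7 and a highest value of 76.5 CPM. The 2 with an MI oocyte and T were at 69.0 and 78.8 CPM, so that in this class the 2 kinds of implant lay close together. Libraries with a degenerating oocyte had 70.4 and 71.7 CPM with C, and 144.9, 139.5, 104.4 and 179 CPM with T. Those with an MII oocyte had 68.0 CPM with C, and 130.5, 190.7 and 95.5 CPM with T. The GV library, Chow+T 4, was the lowest of all at 55.5 CPM.

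**Figure D2:**
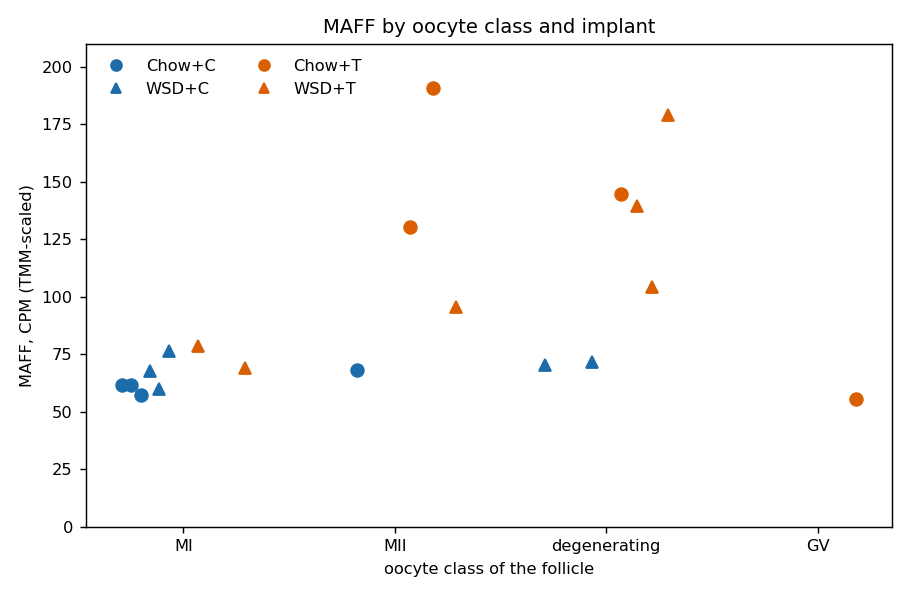
MAFF in CPM (TMM-scaled, linear axis from 0) by the class of oocyte from the same follicle. Each point is a library, blue with cholesterol and orange with testosterone, circles on chow and triangles on the Western-style diet. All 8 MI libraries lie at or below 78.8 CPM, and the highest, 190.7 CPM, is an MII library on chow with testosterone.

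On chow, no animal with testosterone had an MI oocyte and 3 of 4 without it had one, so there the implant and the oocyte class can hardly be told apart. With the oocyte class as a term over the 18 libraries other than GV, the fitted log2 fold change of MAFF with testosterone was 1.08 (SE 0.28) on chow and 0.54 (SE 0.20) on WSD. In the MI and MII libraries alone it was 1.38 on chow and 0.25 on WSD. On WSD this left 3 MI libraries of WSD+C, and 2 MI and 1 MII of WSD+T. The value on WSD thus shrank by more than 1.5 times when degenerating follicles were left out. On chow, the degenerating library Chow+T 1 and the GV library Chow+T 4 were left out. Without Chow+T 4 alone the value on chow was 1.32. When the leukocyte score was added as a covariate, the values on chow and on WSD were 1.08 and 0.51. Without the libraries WSD+C 4 and WSD+T 6 they were 1.07 and 0.50.

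FOS, FOSB and FOSL2 encode Fos proteins, which bind DNA with a partner such as a Jun protein, and JUNB encodes a Jun protein. Together they form the AP-1 factor. FOS was at 2070, 2721, 2651 and 4392 CPM in Chow+C and at 3453, 1467, 428 and 2589 CPM in Chow+T. It was at 2626, 3094, 3076, 1413 and 3280 CPM in WSD+C, and ran from 551 through a median of 2792 to 3854 CPM in WSD+T. The groups overlapped, and the values were furthest apart in Chow+T and WSD+T, 8.07-fold and 6.99-fold. The lowest values belonged to 2 testosterone libraries, Chow+T 3 and WSD+T 6, which were also the 2 highest for MAFF.

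JUNB had a range of 500 to 1175 CPM in Chow+C, 148 to 849 in Chow+T, 380 to 973 in WSD+C and 378 to 1069 in WSD+T. Its lowest library was again Chow+T 3. FOSL2 was steadier, from 266 CPM in WSD+C 4 to 1213 CPM in Chow+C 2, with group means between 626 ± 167 (SD, n = 4, Chow+T) and 739 ± 361 (n = 4, Chow+C). FOSB spread widest of all 9 genes, 87.2-fold between 23.6 CPM in WSD+T 6 and 2055 CPM in WSD+T 4. Outside WSD+T 6 its lowest value was 327 CPM, in Chow+T 4.

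EGR1 encodes a zinc finger factor, and NR4A1 an orphan nuclear receptor also called Nur77. EGR1 was at 1342, 1949, 1683 and 3563 CPM in Chow+C and at 2744, 817, 350 and 1695 CPM in Chow+T. It ran from 999 to 2471 CPM in WSD+C and from 1293 to 3031 CPM in WSD+T. As for FOS and JUNB, its lowest library was Chow+T 3 and its highest Chow+C 4. NR4A1 was more variable, 17.0-fold from its lowest library, Chow+C 1 at 58.7 CPM, to its highest, WSD+T 3 at 998 CPM. Its group means were 349 ± 216 CPM in Chow+C (SD, n = 4), 382 ± 262 in Chow+T (n = 4), 280 ± 151 in WSD+C (n = 5) and 533 ± 346 in WSD+T (n = 6).

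ATF3 encodes a basic leucine zipper factor induced by many kinds of stress. PPP1R15A, also called GADD34, encodes the subunit that directs protein phosphatase 1 to eIF2 alpha and so restores translation after stress. ATF3 was at 2.56, 19.7, 16.8 and 40.3 CPM in Chow+C and at 41.0, 44.6, 44.6 and 3.54 CPM in Chow+T. In WSD+C it was at 5.49, 12.02, 18.4, 33.2 and 30.1 CPM, and in WSD+T it ran from 5.42 through a median of 20.1 to 60.5 CPM. A group therefore held libraries more than 10-fold apart in each of Chow+C, Chow+T and WSD+T. PPP1R15A was at 169, 346, 218 and 318 CPM in Chow+C and at 380, 427, 658 and 140 CPM in Chow+T. It ran from 162 to 362 CPM in WSD+C and from 180 to 545 CPM in WSD+T, and 6 of the 10 libraries with testosterone lay above all 9 without.

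Over the set, the description of testosterone was uneven. On chow, 5 of 9 fitted log2 fold changes were positive, with a median of 0.13 beside -0.02 over the 15019 genes tested. After MAFF, the values furthest from 0 were ATF3 at 0.75 (SE 0.84), PPP1R15A at 0.61 (SE 0.41), EGR1 at -0.61 (SE 0.51) and FOS at -0.58 (SE 0.56). Each depended on which animals were in: leaving out 1 library at a time, ATF3 ran from 0.39, without Chow+C 1, to 1.37, without Chow+C 4. PPP1R15A was at 0.27 without Chow+T 3 and 0.90 without Chow+T 4. EGR1 lay between -1.16, without Chow+T 1, and -0.24, without Chow+C 4, and FOS between -0.98, without Chow+T 1, and -0.24, without Chow+T 3. On WSD, 8 of 9 were positive, with a median of 0.19 beside -0.00 over all genes, and NR4A1, at 0.93 (SE 0.63), lay above MAFF, and no other gene exceeded 0.5. WSD+T set against Chow+C, which shares its controls with the chow comparison, gave 0.84 (SE 0.29) for MAFF.

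MAFF was the 1 gene of the 9 whose WSD+T and Chow+C libraries did not overlap, which was so for 0.739% of all genes tested. The rule had used this direction, and nothing is read from that count. On chow and on WSD, testosterone and cholesterol libraries overlapped for all 9, beside 2.66% and 0.0732% of all genes without overlap. The 2 libraries with the most MAFF differed in leukocyte score, 2.29 for Chow+T 3 and 7.84 for WSD+T 6. WSD+C 4, with a score of 7.65, had 70.4 CPM of MAFF. Macrophage markers, however, summed to 2860 CPM in WSD+T 6 and to at most 368 CPM in the WSD+C libraries. The part of these cells in the MAFF values was not tested.

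The diet comparisons were not used to choose the set and were tested. They share libraries with the testosterone comparisons that chose MAFF, so for MAFF they are not independent of the choice. Without testosterone, none of the 9 genes passed edgeR's quasi-likelihood test between WSD and chow, where 0.00% of 15019 genes passed an adjusted p of 0.05. At an unadjusted p of 0.05, 0 of 9 passed beside 5.08% of all genes, and DESeq2 and limma-voom called 0 of 9 as well. MAFF had a log2 fold change of 0.16 (95% confidence interval -0.45 to 0.77, edgeR adjusted p = 0.98), and FOS one of -0.13 (-1.26 to 0.99, adjusted p = 0.99). JUNB was at -0.01 (-0.94 to 0.93) and PPP1R15A at -0.01 (-0.83 to 0.81). With 4 and 5 animals, differences of any size inside these intervals remain compatible with the data. The intervals are not limits of detection.

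Under testosterone, none of the 9 passed between WSD and chow either, by edgeR, DESeq2 or limma-voom, with 0 of 9 at an unadjusted p of 0.05 beside 4.97% of all genes and 0.00% past the adjusted threshold. The largest value was that of EGR1, 0.64 (95% confidence interval -0.34 to 1.63, edgeR adjusted p = 0.88), and MAFF stood at -0.23 (-0.81 to 0.35, adjusted p = 0.94). Single libraries moved both: EGR1 was at 0.33 without Chow+T 3 and 1.198 without Chow+T 1, and MAFF at 0.02 without Chow+T 3 and -0.49 without Chow+T 4. The difference between the testosterone effects on the 2 diets, the interaction, is built from the values that chose MAFF, so its -0.39 (SE 0.40) is given as a description. It was -0.14 without Chow+T 3, -0.64 without Chow+T 4, and -1.13 in the MI and MII libraries alone. MAFF aside, no gene of the set passed for the interaction by edgeR, DESeq2 or limma-voom. None of them had an unadjusted edgeR p under 0.05, beside 4.52% of all genes, and 0.00% of all genes passed the adjusted threshold. EGR1 was at 0.78 (95% confidence interval -0.62 to 2.18) and NR4A1 at 0.80 (-1.22 to 2.81).

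The oocyte classes were compared over 18 libraries with the treatment group as a term, over 14976 genes. MAFF was higher with degenerating than with MI oocytes in mean, 118 ± 43.6 CPM (SD, n = 6) against 66.6 ± 7.88 (n = 8), and ATF3 likewise, at 36.3 ± 18.6 against 14.4 ± 8.15 CPM. Testosterone animals gave 4 of the 6 degenerating and 2 of the 8 MI libraries, so the means also hold the difference that chose MAFF. Neither gene passed the test. The log2 fold change was 0.45 (SE 0.19, edgeR unadjusted p = 0.0335, adjusted p = 0.314) for MAFF and 1.24 (SE 0.56, unadjusted p = 0.0443, adjusted p = 0.339) for ATF3. These were the 2 of 9 at an unadjusted p of 0.05, beside 14.3% of all genes, while 0.00% of all genes passed the adjusted threshold.

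By library, 4 of the 6 degenerating follicles lay above every MI follicle for MAFF and 5 of 6 for ATF3. All 4 for MAFF were with testosterone, the treatment whose rise chose it, at 104.4 to 179 CPM. The 2 degenerating libraries with cholesterol were at 70.4 and 71.7 CPM of MAFF, below the highest MI value of 78.8 CPM. The exception for ATF3 was WSD+T 6, at 5.42 CPM. The classes overlapped for all 9 genes, beside 0.0935% of all genes without overlap. Macrophage markers summed to 11.5 to 27.3 CPM in the MI libraries and to 18.6 to 2860 CPM in the degenerating ones. Lymphocyte markers summed to 0.675 to 11.8 CPM and to 0.530 to 555 CPM in the same order. The part of these cells in the difference was not tested. When the leukocyte score was added as a covariate, the log2 fold change between degenerating and MI was 0.28 for MAFF and 1.41 for ATF3, with 0 members called. With the oocyte class alone, without the treatment term, MAFF gave 0.83 (edgeR adjusted p = 0.0501). That fit also takes in the testosterone difference that chose MAFF. DESeq2 called 801 genes between these classes and edgeR 0, or 226 without Chow+T 1, but neither tool, nor limma-voom, called a gene of the set.

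Between MII and MI oocytes, no member passed by edgeR, DESeq2 or limma-voom, with 0 of 9 at an unadjusted p of 0.05 beside 3.91% of all genes and 0.00% past the adjusted threshold. MAFF stood at 0.26 (SE 0.23, edgeR adjusted p = 0.9995) with the treatment group in the model, and at 0.86 (SE 0.25, adjusted p = 0.64) without it. The latter also takes in the testosterone difference that chose MAFF. The comparison rested on few animals: FOS was at -0.48, and at -1.44 without Chow+C 4, JUNB at -0.24 and -1.35, and EGR1 at -0.39 and -1.53.

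**Figure D3:**
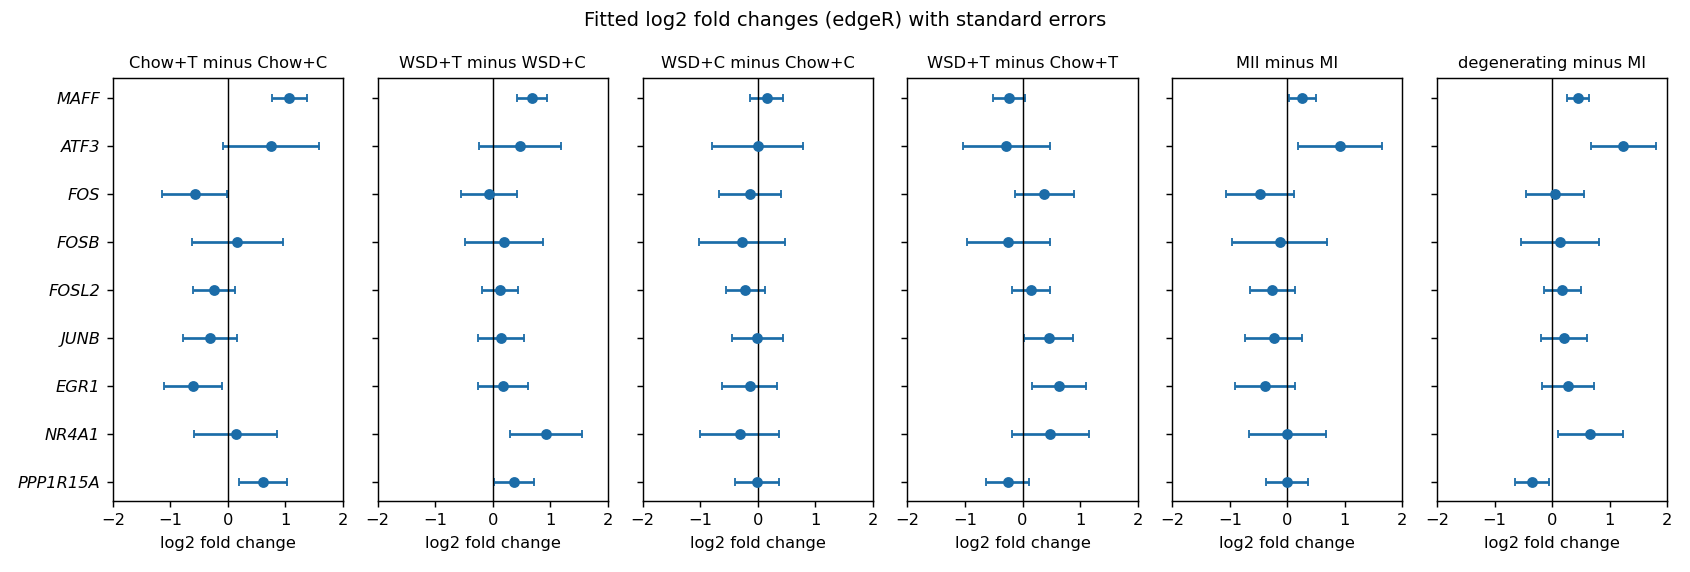
Fitted log2 fold changes of the 9 genes in 6 comparisons, with bars of 1 standard error from edgeR. MAFF stands at 1.07 and 0.68 in both testosterone panels, which are a description, and none of the genes passes the adjusted threshold in the other panels.

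How the genes varied together from animal to animal was tested next. Pearson's r of log2 CPM over the 19 libraries was computed for all 36 pairs, with 100000 permutations each and Benjamini-Hochberg adjustment over the pairs. In 10 pairs the adjusted p was under 0.05 by Pearson's r and in 20 by Spearman's rho, with 9 pairs in both counts. Those 9 were all positive, and each still had a permutation p under 0.05 without the 2 libraries farthest from the median of the gene on the x axis.

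FOS, JUNB and EGR1 varied together most closely. For JUNB and EGR1, r was 0.93 and rho 0.92 (adjusted permutation p = 0.00024 and 0.00012), and r was 0.87 without Chow+T 3 and WSD+T 1. For FOS and EGR1, r was 0.88 and rho 0.96 (adjusted permutation p = 0.00018 and 0.00012), and r was 0.96 without Chow+T 3 and WSD+T 6. FOS and JUNB had r = 0.88 and rho = 0.90, with the same adjusted permutation p-values, and r was 0.88 without the same 2 libraries. The relation was as close within groups: after group means were subtracted, r was 0.94, 0.90 and 0.90 for these pairs. FOSL2 also followed EGR1, with r = 0.62 and rho = 0.62 (adjusted permutation p = 0.025 and 0.018) and r = 0.70 without Chow+C 2 and WSD+C 4.

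A different block joined ATF3, NR4A1, PPP1R15A and FOSB. ATF3 and NR4A1 had r = 0.78 and rho = 0.72 (adjusted permutation p = 0.0016 and 0.0029). ATF3 and PPP1R15A had r = 0.73 and rho = 0.73 (adjusted permutation p = 0.0035 and 0.0029), and NR4A1 and PPP1R15A had r = 0.72 and rho = 0.76 (0.0027 and 0.0022). Leaving out Chow+C 1 and Chow+T 4, the 2 farthest from the median in these pairs, left r at 0.59, 0.61 and 0.60. FOSB had r = 0.65 with ATF3 (rho 0.71, adjusted permutation p = 0.0061 and 0.0046), which was 0.68 without those 2 libraries. With PPP1R15A, FOSB had r = 0.64 (rho 0.79, adjusted permutation p = 0.0061 and 0.0013), which was 0.73 without Chow+T 4 and WSD+T 6. FOSB and NR4A1 gave 0.44 over all libraries and 0.88 without WSD+T 6.

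**Figure D4:**
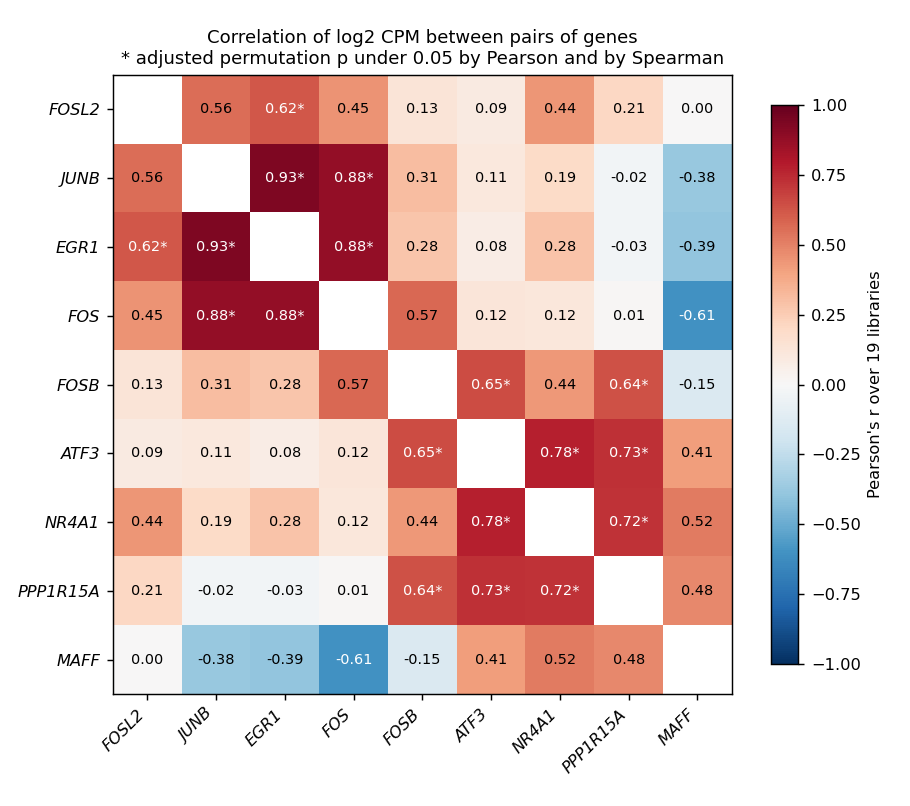
Pearson's r of log2 CPM over 19 libraries for each pair of the 9 genes, with an asterisk where the adjusted permutation p was under 0.05 by both Pearson and Spearman. JUNB, EGR1 and FOS form a block at 0.88 to 0.93, and ATF3, NR4A1 and PPP1R15A one at 0.72 to 0.78.

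The blocks, named after their correlations were seen, were not separate by rank. Of the 16 pairs between FOS, FOSL2, JUNB or EGR1 and ATF3, FOSB, NR4A1 or PPP1R15A, 0 passed by Pearson's r, which ran from -0.03 to 0.57, and 5 passed by Spearman's rho. FOSB was in 3 of these, with FOS (r = 0.57, rho = 0.69, adjusted permutation p = 0.08 and 0.0048), EGR1 (r = 0.28, rho = 0.63, 0.34 and 0.016) and JUNB (r = 0.31, rho = 0.55, 0.28 and 0.038). NR4A1 was in the other two, with EGR1 (r = 0.28, rho = 0.59, 0.38 and 0.025) and FOSL2 (r = 0.44, rho = 0.53, 0.13 and 0.041). FOS and ATF3, at r = 0.12 and rho = 0.30 (adjusted permutation p = 0.80 and 0.28), passed by neither measure, nor did EGR1 and PPP1R15A, at r = -0.03 and rho = 0.33 (0.98 and 0.25). Whether correlations within and between the blocks differ was not tested. EGR1 and PPP1R15A had r = 0.79 without Chow+T 2 and Chow+T 3, so the value of -0.03 rests on those libraries.

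MAFF belonged to neither block by Pearson's r over all libraries. Its r was 0.52 with NR4A1, 0.48 with PPP1R15A and 0.41 with ATF3 (adjusted permutation p = 0.068, 0.10 and 0.16). By rank these 3 relations did pass, with rho of 0.53, 0.58 and 0.55 (adjusted permutation p = 0.041, 0.029 and 0.035). After group means were subtracted, r was 0.56 with NR4A1, 0.36 with PPP1R15A and 0.39 with ATF3. The permutations ran across treatments, and MAFF was chosen for its rise with testosterone. A shared difference between treatments thus enters these relations, which are not independent of the choice. Pearson's r depended on single libraries in both directions. Without WSD+T 6 it was 0.69 with PPP1R15A and 0.65 with ATF3. It was 0.33 with PPP1R15A without Chow+T 3, and 0.34 with ATF3 without Chow+T 4. Of 24 alternative settings, Pearson's r passed in 2 for PPP1R15A, 2 for ATF3 and 3 for NR4A1. Without WSD+C 4 and WSD+T 6, r was 0.55 with NR4A1, 0.70 with PPP1R15A and 0.67 with ATF3 (adjusted permutation p = 0.053, 0.0053 and 0.012). With FOS, MAFF had the only negative r past the threshold, -0.61 (adjusted permutation p = 0.025), but rho was -0.14 (adjusted permutation p = 0.63). It rests on Chow+T 3 and WSD+T 6, without which r was -0.07. None of the 9 genes was related to the leukocyte score past the threshold by either measure. There r ran from -0.53 for FOSB to 0.37 for MAFF, with adjusted permutation p-values of 0.19 and 0.34 over 9 relations, and rho was -0.17 and 0.44 (0.89 and 0.55).

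**Figure D5:**
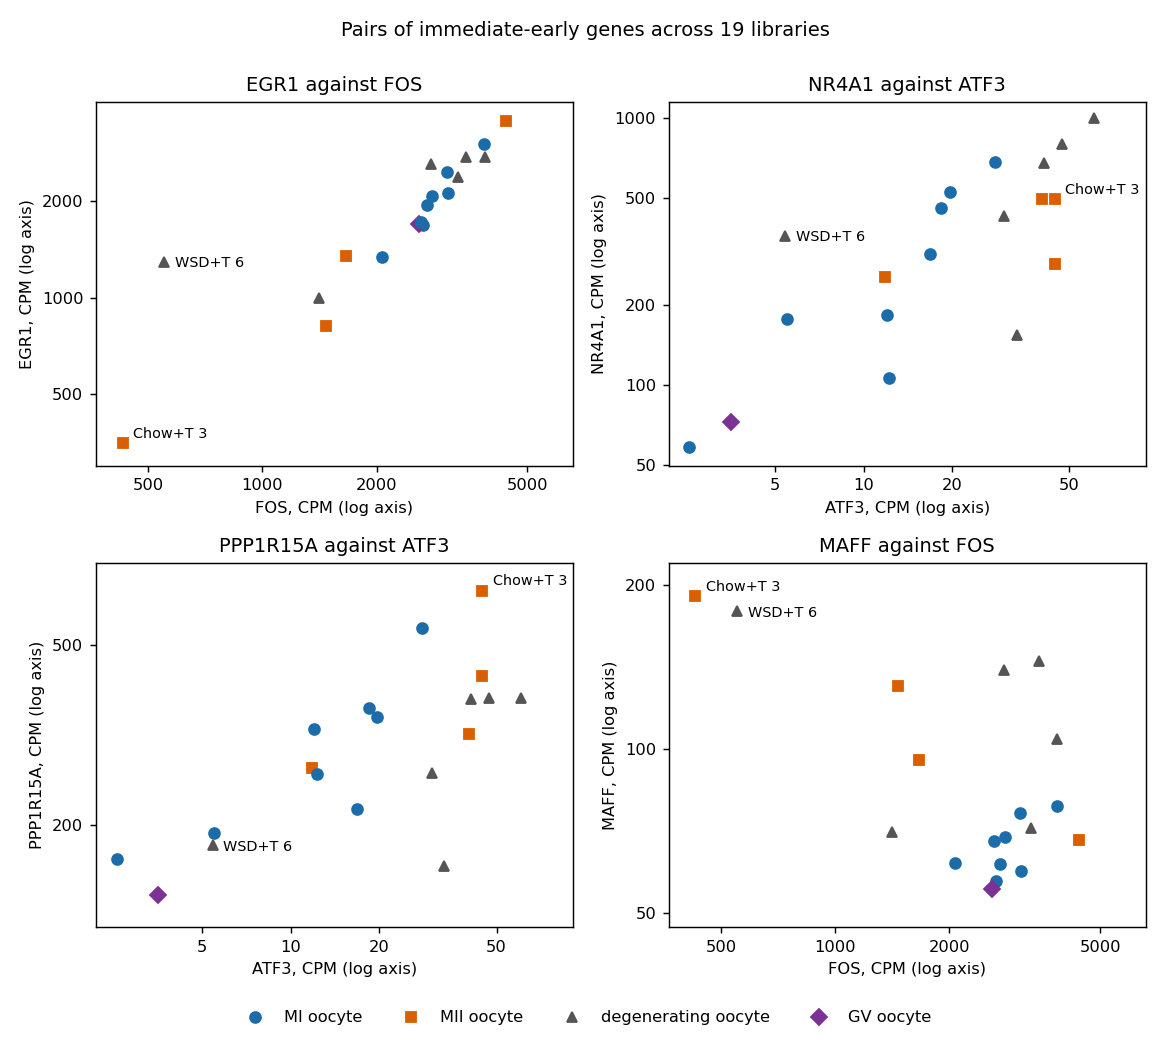
CPM (TMM-scaled, log axes) of 4 pairs of genes in the 19 libraries, with the oocyte class as shape and colour. EGR1 follows FOS (r = 0.88), NR4A1 and PPP1R15A follow ATF3 (r = 0.78 and 0.73), and MAFF against FOS (r = -0.61) rests on the labelled libraries Chow+T 3 and WSD+T 6.

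Among 10347 genes ranked by their r with MAFF over the 19 libraries, the closest was KLF10, a Krüppel-like factor induced by TGF-beta, at 0.88. NOCT, the circadian gene nocturnin, followed at 0.86. Then came ABL2, a tyrosine kinase, at 0.82, EIF5, a translation initiation factor, at 0.81, and ZNF281, a zinc finger factor, at 0.81. At the other end stood the zinc finger genes ZNF133 at -0.87, ZBED9 at -0.87 and ZKSCAN7 at -0.85. After group means were subtracted, r was 0.83 for KLF10 and 0.81 for NOCT. The genes closest to FOS were SOCS3, an inhibitor of cytokine signalling, at 0.83, ZNF606 and RARS2 at 0.78, and ZFP36, which marks AU-rich messages for decay, and SCARF2 at 0.77. These are the extremes of a ranking and carry no test.

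KLF10 and NOCT also stood on a list of other immediate-early and feedback genes. KLF10 had means of 77.0 ± 35.8 CPM in Chow+C (SD, n = 4), 185 ± 127 in Chow+T (n = 4), 75.4 ± 24.98 in WSD+C (n = 5) and 150.1 ± 78.6 in WSD+T (n = 6). NOCT was lower, at 5.84 ± 1.42, 24.6 ± 18.7, 8.03 ± 5.16 and 12.9 ± 8.71 CPM in the same order. Testosterone on chow gave a log2 fold change of 2.07 for NOCT (SE 0.65, edgeR adjusted p = 0.66) and of 1.27 for KLF10 (SE 0.51, adjusted p = 0.66), neither past the threshold. Both were singled out for following MAFF, which was chosen for its rise with testosterone, so these values are a description.

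In all, 88 genes of 8 related lists were tested: other AP-1 subunits, EGR genes with NAB corepressors, NR4A genes, MAF genes with their CNC partners, upstream regulators, the integrated stress response, heat shock, and other immediate-early and feedback genes. No gene of these lists was called by edgeR in any of the 9 comparisons. With testosterone on chow, 10 were higher and 1 was lower at an unadjusted p of 0.05, 12.5% of them beside 7.18% of all genes. The lists were chosen with earlier results of these data known, so nothing is read from the difference between these shares. Of the 33 other immediate-early and feedback genes, 5 were among the 10, and the median log2 fold change of that list was 0.20 beside -0.02 over all genes.

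The orphan receptor NR4A3 had the largest fitted value, 3.20 (SE 1.19, edgeR adjusted p = 0.66), from 1.40 ± 0.94 CPM in Chow+C (SD, n = 4) to 12.9 ± 11.4 in Chow+T (n = 4), where the lowest library was at 0.36 CPM. FOSL1, a Fos subunit, was at 1.70 (SE 0.72), and NFIL3, a basic leucine zipper repressor, at 1.36 (SE 0.45), with adjusted p-values of 0.66 by edgeR. The MAF list, which holds the relatives and partners of MAFF, had 0 of 11 at an unadjusted p of 0.05. Its BACH1, a repressor that pairs with small MAF proteins, was at 0.58 (SE 0.34), and NFE2L2, the activator of the antioxidant response, at 0.34 (SE 0.23). The integrated stress response, on which PPP1R15A acts, had 0 of 14, a median of 0.02, and PPP1R15B, the constitutive counterpart of PPP1R15A, at 0.70 (SE 0.44).

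On WSD, testosterone gave 2 higher and 2 lower genes of the 88 at an unadjusted p of 0.05, beside 3.86% of all genes. The higher ones were KLF10, at 0.99 (SE 0.44, edgeR adjusted p = 0.999), and IER3, at 1.18 (SE 0.41, edgeR adjusted p = 0.999). KLF10 was singled out for following MAFF across the libraries, so its value is a description here as on chow. Diet without testosterone gave 3 higher and 1 lower, 4.55% of the 88 beside 5.08% of all genes. Diet under testosterone gave 4 higher and 1 lower, 5.68% beside 4.97%. Both shares were near the background. In the latter the higher ones included IER3 at 1.33 (SE 0.44) and the growth arrest gene GADD45G at 2.14 (SE 0.75), with an edgeR adjusted p of 0.86 for each.

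The list genes differed most between degenerating and MI oocytes, with 20 higher and 3 lower of 88 at an unadjusted p of 0.05, 26.1% beside 14.3% of all genes. As the lists were chosen with earlier results of these data known, nothing is read from these shares. The smallest adjusted p of a list gene was 0.164, so none was called. NR4A3 was at 2.47 (SE 0.65), ZFP36L2, a regulator of message decay, at 2.65 (SE 0.74) and BACH2 at 1.67 (SE 0.46), each with an edgeR adjusted p of 0.164. All 3 lower genes were of the integrated stress response: EIF2S1, which encodes eIF2 alpha, at -0.42 (SE 0.15), its kinase EIF2AK1 at -0.57 (SE 0.21) and ASNS, asparagine synthetase, at -1.32 (SE 0.60). In this comparison, too, RNA of other cells was unequal between the classes, and not that of macrophages alone. Lymphocyte markers had a median of 1.54 CPM with MI and 19.3 CPM with degenerating oocytes, and neutrophil markers 3.60 and 57.4 CPM. The summed leukocyte markers had closer medians, 2385 and 2199 CPM. The part of these cells in the fold changes was not tested. With MII against MI oocytes, 3 were higher and 2 lower, 5.68% beside 3.91% of all genes, the higher ones BTG1 at 0.996 (SE 0.32), IER5 at 0.88 (SE 0.39) and KLF10 at 0.96 (SE 0.44), with an edgeR adjusted p of 0.9995 for each.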

How the data were processed

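For each of 19 libraries, non-directional and selected for polyA, the authors deposited raw counts of reads per gene. The submitters' processing notes name Trimmomatic and STAR. Their versions, the genome build, the annotation and the counting settings are not given in the sources used, so no coordinates are printed, and without strand, reads of overlapping genes cannot be told apart. Ambiguous, multimapping, no-feature and unmapped reads (1.62% to 2.25%, 7.03% to 18.3%, 18.3% to 33.5% and 1.46% to 3.92% of a library) stayed out.

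The tests here used edgeR 4.0.16 in R 4.3.3: filterByExpr (minimum count 10, minimum total 15), TMM scaling, and two-sided robust quasi-likelihood tests, adjusted by Benjamini-Hochberg over all genes tested, at a threshold of 0.05. Treatments were compared in a fit of the 4 groups over all libraries, and oocyte classes in a fit that also held the groups. DESeq2 1.42.0 and limma-voom (limma 3.58.1) were alternatives, as were RLE scaling, no filter, a leukocyte covariate, left-out libraries and, added after seeing the data, the oocyte class as a term. The scripts were tested on simulated data. Log2 CPM for correlations used a prior count of 1.

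Gene counts per library set the counting error only, and animals differed far more (biological coefficient of variation 0.583). Each library is 1 animal. The genes of the set and all lists were chosen with earlier results of these data known. Named genes are the set, the genes most and least like MAFF (5 and 3) and most like FOS (5), and up to 3 genes of smallest p per list and comparison. A result for 1 further list gene is not reported here.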

Additional observations from a re-analysis of the deposited data

Results flagged for a closer look

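Libraries far from the others of their treatment group or oocyte class were sought by Dixon's gap at the 95% level, on the log2 scale, in 63 sets of a gene and a group of 4 to 10 libraries. Of these, 9 were picked out, and chance picks out about 1 in 20. In Chow+T, ATF3 was at 3.54 CPM in Chow+T 4, the library with the GV oocyte, while the next was at 41.0. In WSD+C, the library WSD+C 4 was far below the others for FOS, at 1413 CPM with the next at 2626, and for FOSL2, at 266 CPM with the next at 646. FOSL2 at 266 CPM was also far from the other degenerating libraries, whose next was at 712. In WSD+T, the library WSD+T 6 had 23.6 CPM of FOSB with the next at 567, and among the degenerating libraries the same 23.6 CPM stood below a next value of 439. ATF3 was at 5.42 CPM in WSD+T 6 as well, below 30.1 in the next degenerating library. Among the MII libraries, ATF3 was at 11.8 CPM in WSD+T 1, with the next at 40.3. Among the MI libraries, Chow+C 2 was high for FOSL2, at 1213 CPM, with the next at 693. WSD+C 4 and WSD+T 6 have the highest leukocyte scores, and the part of other cells in these values was not tested.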

How the results depend on the processing

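In the diet and oocyte comparisons, which did not choose the set, no gene of it was called under any setting run. For MAFF they are not independent of the choice, because they use the same libraries. Of 2151 fold changes recomputed, 2139 moved by less than 1 SD, and 161 changed sign, 9 of them with a size of at least 0.3. The log2 fold change of MAFF with testosterone on chow, a description, lay between 0.83 and 1.38 over the settings. The 12 that moved further were those of FOS, EGR1 and MAFF in the MI and MII libraries only, of FOS, JUNB and EGR1 between MII and MI without Chow+C 4, and of MAFF between MII and MI without the treatment term. The MI and MII libraries hold 2 of Chow+T, both MII, beside 3 MI and 1 MII of Chow+C. In them, testosterone on chow gave -1.63 for FOS and -1.86 for EGR1. Chow+T 3, lowest of all libraries for both at 428 and 350 CPM, stayed in. Chow+T 1, at 3453 and 2744 CPM, and Chow+T 4 were out. In the same MI and MII libraries, WSD against chow under testosterone gave -1.003 for MAFF, 1.54 for FOS and 1.87 for EGR1. The interaction gave -1.13, 1.56 and 1.89. The cause was not tested. Relations of the genes with the leukocyte score ranged from 0 to 1 of 9 past the threshold when each library was left out, the 1 being FOS without Chow+T 3 (r = -0.68). Over all genes, DESeq2 called 801 between degenerating and MI and at most 6 elsewhere, and limma-voom 0. edgeR called 574 between degenerating and MI without the treatment term and 226 without Chow+T 1, and in the MI and MII libraries only 4 with testosterone on chow and 1 for WSD under testosterone. No paired analysis was possible because the replicate numbers were given in sample order and pair no animals across groups. With 4 to 6 animals a group, the spread between animals rather than read depth limits what can be seen.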
